A study of Homo sapiens with 5 samples.

Results

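The nuclear-encoded genes of respiratory complexes II to V were taken by symbol from the deposited tables: the SDHA to SDHD genes, all UQCR genes, CYC1, CYCS, the COX4 to COX8 genes and all ATP5 genes, with pseudogene symbols left out. The rule gave 51 members of 27139 listed genes, and no measured value was used in it. They are the 4 subunits of complex II, 10 genes of complex III, cytochrome c, 17 genes of complex IV and 19 genes of complex V. Not all are subunits: COX7A2L encodes a factor that joins complexes III and IV into supercomplexes, ATP5J2-PTCD1 is a readthrough gene, ATP5S and ATP5SL encode factor B and a protein like it, and UQCRHL and ATP5L2 are copies of UQCRH and ATP5L. The subunits encoded by mitochondrial DNA were not analysed here.

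Polyadenylated RNA was sequenced from wild-type H1 cells, an established human embryonic stem cell line grown in TeSR medium, at day 30 of differentiation. In one group (YAPi, 3 libraries) the cells had received Activin, a TGF-beta family ligand, with an inhibitor of YAP, the coactivator restrained by the Hippo pathway, and the labels give a treatment time of 24 h. In the other (GiWi, 2 libraries) the cells had received an inhibitor of GSK3, an enzyme that restrains Wnt signalling, and an inhibitor of Wnt/beta-catenin, for a labelled treatment time of 48 h. Protocol and treatment time therefore cannot be told apart. The study used the comparison to set the cardiomyocytes of both protocols side by side. The labels do not say whether the libraries are separate cultures. The p-values then measure only how far these libraries lie apart, and that spread may be technical. The YAPi libraries held 48825573.5, 44614628 and 43661243 exon counts, against 48904372 and 48309865.5 in the GiWi libraries.

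The respiratory chain passes electrons from fuel oxidation to oxygen. Complex II oxidises succinate and is also an enzyme of the TCA cycle, complex III passes electrons to cytochrome c, and complex IV passes them on to oxygen. Complexes III and IV pump protons, and complex V, the ATP synthase, makes ATP as the protons flow back. Heart muscle is rich in these complexes, and several complex IV subunits exist as a form made in most tissues and a form restricted to muscle, lung or testis.

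Promoters are shown for 5 members on which the results turn: UQCRQ, COX6A1 and ATP5E, called higher with YAPi, SDHA, called lower, and COX6A2, the heart and muscle isoform of a complex IV subunit. Each sequence runs 5′ to 3′ on the gene's own strand, from 250 bases before to 50 bases after the start, in RefSeq on GRCh38.p14. The windows are chr5:218070-218369 (+) for SDHA, chr5:132866392-132866691 (+) for UQCRQ, chr12:120437863-120438162 (+) for COX6A1, chr16:31428311-31428610 (-) for COX6A2 and chr20:59032286-59032585 (-) for ATP5E. Capitals mark a match on either strand to 1 of 4 searched motifs.
UQCRQ: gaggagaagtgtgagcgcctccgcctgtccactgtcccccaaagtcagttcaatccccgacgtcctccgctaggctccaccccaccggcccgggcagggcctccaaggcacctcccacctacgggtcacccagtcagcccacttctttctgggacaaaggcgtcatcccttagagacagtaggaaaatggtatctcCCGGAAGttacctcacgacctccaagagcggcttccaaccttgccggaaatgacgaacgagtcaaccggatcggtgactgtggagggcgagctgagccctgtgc
COX6A1: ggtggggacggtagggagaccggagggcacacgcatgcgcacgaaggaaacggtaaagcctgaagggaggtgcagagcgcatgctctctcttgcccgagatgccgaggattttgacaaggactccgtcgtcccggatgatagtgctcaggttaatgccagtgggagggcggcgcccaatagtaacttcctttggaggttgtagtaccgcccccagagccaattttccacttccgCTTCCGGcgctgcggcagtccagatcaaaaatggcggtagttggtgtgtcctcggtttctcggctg
ATP5E: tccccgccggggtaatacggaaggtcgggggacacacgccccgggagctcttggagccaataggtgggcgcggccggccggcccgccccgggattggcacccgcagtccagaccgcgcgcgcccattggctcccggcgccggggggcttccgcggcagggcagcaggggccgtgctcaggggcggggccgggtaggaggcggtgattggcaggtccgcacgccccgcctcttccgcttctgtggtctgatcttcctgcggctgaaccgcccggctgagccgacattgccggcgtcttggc
SDHA: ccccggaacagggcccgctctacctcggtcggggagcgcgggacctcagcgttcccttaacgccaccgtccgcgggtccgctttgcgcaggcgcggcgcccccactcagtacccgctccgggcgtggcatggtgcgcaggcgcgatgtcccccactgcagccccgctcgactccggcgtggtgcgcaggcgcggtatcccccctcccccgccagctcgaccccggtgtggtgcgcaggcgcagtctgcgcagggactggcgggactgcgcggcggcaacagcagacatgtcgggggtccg
COX6A2: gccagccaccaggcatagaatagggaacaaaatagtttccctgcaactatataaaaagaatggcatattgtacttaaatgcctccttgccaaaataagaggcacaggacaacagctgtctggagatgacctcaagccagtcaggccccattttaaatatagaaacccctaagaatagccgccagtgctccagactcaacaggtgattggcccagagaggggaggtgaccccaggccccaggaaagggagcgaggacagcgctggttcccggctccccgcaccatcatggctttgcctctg
The motifs were the NRF1 palindrome (GCGCA followed by its reverse complement), CCGGAAG (ETS factors), AAGATGGC (YY1) and TCAAGGTCA (oestrogen-related receptors), families known as regulators of respiratory genes. None of the 4 contains another. UQCRQ and COX6A1 each held 1 ETS match, and the windows of SDHA, COX6A2 and ATP5E held none of the 4.

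RefSeq's promoter table matched 37 of the 51 members. CCGGAAG lay in 15 of the 37 (40.5%), against 12.2% of 27305 genes in the table. The YY1 letters lay in 5 (13.5%, against 3.52% of all genes), the NRF1 letters in 2 (5.41%, against 1.52%) and the oestrogen-related receptor letters in 1 (2.70%, against 0.432%). Among the members called higher with YAPi, 8 of 13 with a promoter held CCGGAAG. The count was 2 of 6 among members called lower and 5 of 16 among those that did not pass. These are descriptions of letters in a window, with no binding measured and no test.

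The respiratory genes were well expressed under both protocols and moved little. Their summed level was 4292 ± 262 FPKM (fragments scaled to transcript length and library size) in YAPi and 4274 ± 19.7 FPKM in GiWi libraries (SD, n = 3 and 2). By library it was 4439, 4447 and 3990 FPKM in YAPi, against 4288 and 4260 FPKM in GiWi libraries. YAPi replicates 1 and 2 thus lay above both GiWi libraries and replicate 3 below both. The sums of complexes II, III, IV and V, given below as means, had the same order. Of the 51 members, 17 averaged at least 100 FPKM over all libraries, 42 at least 10, and 6 were below 1. Members took 0.504, 0.503 and 0.436% of the counts in YAPi libraries, against 0.519 and 0.516% in GiWi libraries. COX7C, a small subunit of complex IV, stood highest, at a mean of 242.4 FPKM and rank 203 among all genes. The level of a member depends on the transcript length that its table lists: for 16 members the count and FPKM tables list different transcripts.

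Filtering left 46 members, and edgeR's quasi-likelihood test (Benjamini-Hochberg adjusted p under 0.05 over 17634 genes) called 16 higher and 8 lower with YAPi. The shares were 34.8% of members higher, against a background of 30.2% of all tested genes, and 17.4% lower, against a background of 26.9%. Over both directions 52.2% were called, under the background of 57.1%. The CPM values of the groups did not overlap for 33 of the 46, or 71.7%, against 75.8% of all genes. The median log2 fold change (YAPi over GiWi) was 0.15 over the members and 0.01 over all genes. Among the 42 members averaging at least 20 CPM (library-scaled counts, with TMM factors), none changed 2-fold, against 11.9% of all genes at that level. Their median absolute log2 change was 0.23, against 0.31 for those genes, of which 28.9% were called higher, 33.4% lower and 62.2% in either direction.

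The split into higher and lower rested on the scaling. TMM factors were 0.964, 0.954 and 0.926 for the YAPi libraries, against 1.10 and 1.07 for the GiWi libraries. With library size alone, 7 members were higher and 15 lower, a share of 31.8% higher among the called, against 66.7% with TMM. All tested genes shifted in the same direction under it: 22.3% were higher and 39.9% lower, so that 35.8% of called genes were higher, against 52.9% with TMM. limma on log2(FPKM + 1) called 9 members higher and 14 lower, against 22.0% and 36.0% of all genes, and with a pseudocount of 0.1 it called 10 and 14, against 23.7% and 36.0%. Library size alone moved the median of all genes to -0.18 and that of the members to -0.04. Of the 24 calls, 9 held in all 15 alternative settings: UQCRQ, UQCR11, COX6A1, COX7A2, COX7A2L, ATP5E and ATP5I as higher, and SDHA and COX6B2 as lower. The other 15 were lost in at least 1 setting: 15 without GiWi replicate 2, 12 without GiWi replicate 1, 9 without YAPi replicate 1, 8 without YAPi replicate 2, 0 without YAPi replicate 3, 9 with library size alone, 2 with no filter, and 7 and 6 with limma on log2 FPKM at pseudocounts of 1 and 0.1. Members UQCRC2, UQCRFS1 and ATP5S were called in none.

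**Figure D1:**
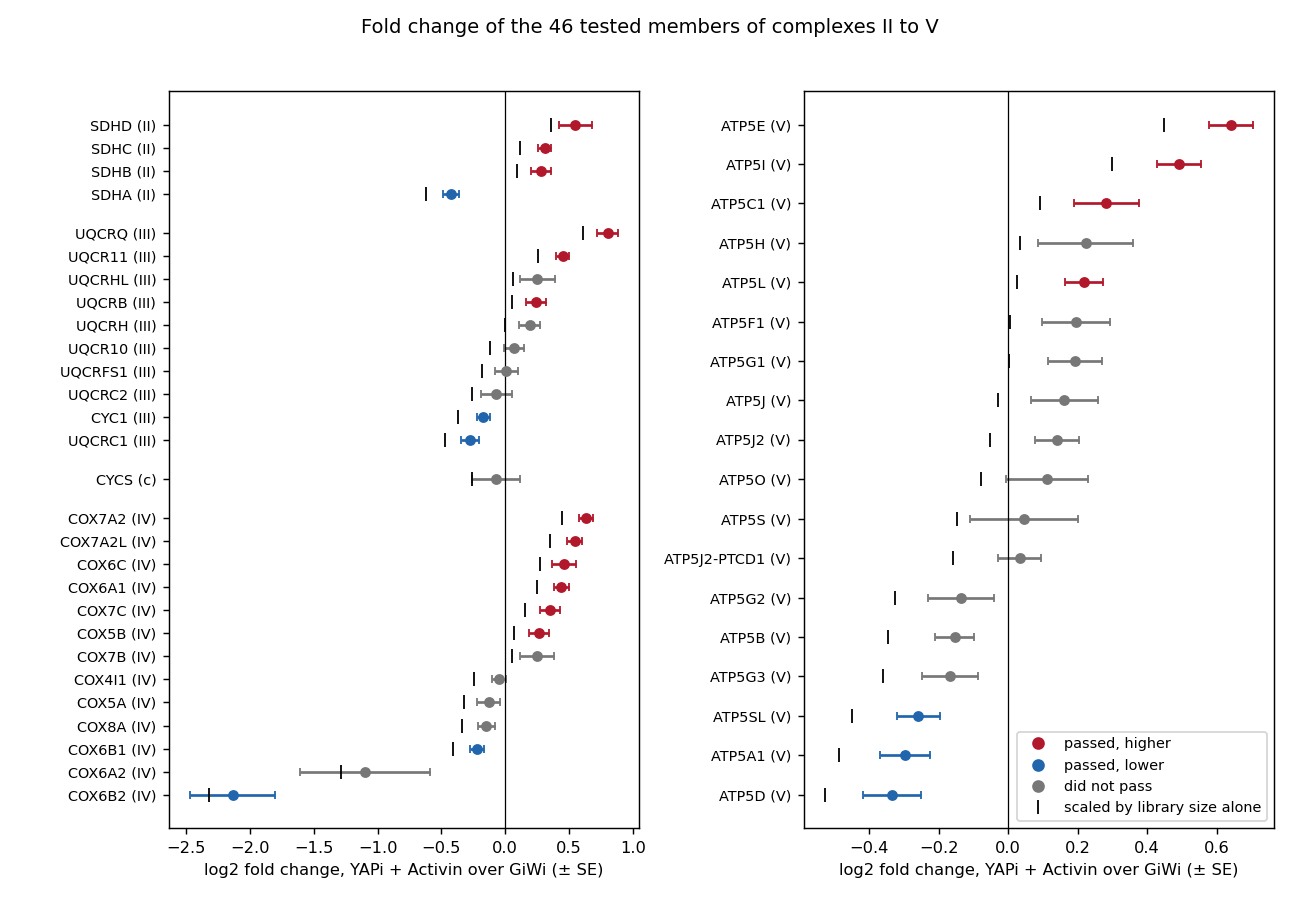
Log2 fold change (YAPi + Activin over GiWi) of the 46 tested members, by complex, with bars for the standard error; colour marks the call at an adjusted p of 0.05. Higher and lower calls stand side by side within complexes II to V, from -2.14 for COX6B2 to 0.80 for UQCRQ.

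In complex II, 3 of the 4 subunits were higher with YAPi and the flavoprotein was lower. Of all tested genes, 30.2% were called higher and 26.9% lower. The CPM values of the groups did not overlap for any of the 4, nor for 75.8% of all tested genes. SDHA carries the FAD at which succinate is oxidised and lies in hg19 at chr5:218338-257197. It stood at 69.2, 68.8 and 63.6 CPM in YAPi libraries, against 88.3 and 92.3 CPM in GiWi libraries. Every YAPi library lay below both GiWi libraries. The log2 fold change was -0.43 ± 0.06 (SE), with an edgeR adjusted p of 0.00268. SDHA has pseudogene copies that may share its reads.

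SDHC and SDHD anchor complex II in the inner membrane and together bind its haem. SDHD had 67.6, 65.4 and 51.3 CPM in YAPi libraries, against 43.4 and 40.7 CPM in GiWi libraries, with the third YAPi library nearest to GiWi. It rose by a log2 fold change of 0.55 ± 0.13 (edgeR adjusted p = 0.0155). SDHC had 57.5, 56.9 and 55.4 CPM in YAPi libraries, against 46.3 and 45.1 CPM in GiWi libraries, and the groups did not overlap. Its log2 fold change was 0.31 ± 0.05 (edgeR adjusted p = 0.00464). SDHB, the iron-sulphur subunit, rose by 0.28 ± 0.08 (edgeR adjusted p = 0.0269). Of these 3 calls, none held with library size alone, where the edgeR adjusted p was 0.0798 for SDHD, 0.141 for SDHC and 0.417 for SDHB. Leaving out GiWi replicate 2 also ended them, at adjusted p of 0.112, 0.0508 and 0.128, and leaving out GiWi replicate 1 ended those of SDHD (0.0777) and SDHB (0.141). The log2 fold changes stayed about as large without those libraries, at 0.50 and 0.59 for SDHD, 0.29 and 0.27 for SDHB and 0.29 for SDHC. With library size alone they were smaller, at 0.36 for SDHD, 0.09 for SDHB and 0.12 for SDHC. SDHB was also lost without YAPi replicate 1 (0.0729) or 2 (0.0784).

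The make-up of complex II transcripts was also read as shares of their sum within each library, which do not change with its scaling factor. SDHA made up 18.9 ± 0.749% of the summed complex II FPKM in YAPi libraries and 29.1 ± 0.998% in GiWi libraries. SDHD made up 34.2 ± 2.27% in YAPi libraries and 26.9 ± 1.12% in GiWi libraries. Neither pair of ranges overlapped, nor did those of SDHB and SDHC. SDHA was named for its fall and SDHD for the largest rise in the complex, so this separation is a description only. The summed level was 101.5 ± 8.82 FPKM in YAPi and 97.6 ± 2.71 FPKM in GiWi libraries.

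In complex III, small accessory subunits were higher with YAPi, and a core and a catalytic subunit were lower. Of the 5 accessory genes, 3 rose (UQCRQ, UQCR11 and UQCRB) and UQCRH and UQCR10 did not pass. Of the core and catalytic genes, UQCRC1 and CYC1 fell and UQCRC2 and UQCRFS1 did not pass. Over the whole complex 3 of 10 genes were higher and 2 lower, against 30.2% and 26.9% of all tested genes. With library size alone 2 genes of the complex were higher and 2 lower, against 22.3% and 39.9% of all genes. UQCRB then no longer passed (edgeR adjusted p = 0.634), and its call was lost in 8 of 15 alternative settings. Without YAPi replicate 3 all 5 accessory genes were higher, with edgeR adjusted p of 2.83e-05 for UQCRH and 0.0232 for UQCR10. Of all genes, 38.4% were then higher and 36.5% lower.

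UQCRQ, a small subunit bound at the cytochrome b side of the complex, had the highest log2 fold change of all members. It lies at chr5:132202319-132204536 (hg19) and stood at 86.5, 80.3 and 80.7 CPM in YAPi libraries, against 44.2 and 50.5 CPM in GiWi libraries. All YAPi libraries lay far above both GiWi libraries, at a log2 fold change of 0.80 ± 0.08 (edgeR adjusted p = 7.62e-04). UQCR11, the smallest accessory subunit, had 120.2, 116.7 and 121.4 CPM in YAPi libraries, against 86.8 and 88.0 CPM in GiWi libraries. Libraries within each group lay close together, and the log2 fold change was 0.45 ± 0.05 (edgeR adjusted p = 0.00108; hg19 chr19:1597154-1605483).

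UQCRC1, a core protein that faces the matrix, had 96.7, 98.2 and 87.2 CPM in YAPi libraries, against 112.4 and 115.8 CPM in GiWi libraries. The groups did not overlap, and it fell by 0.28 ± 0.07 on the log2 scale (edgeR adjusted p = 0.0177). CYC1, cytochrome c1, which hands electrons to cytochrome c, had 69.1, 71.7 and 69.9 CPM in YAPi libraries, against 78.5 and 80.03 CPM in GiWi libraries. It fell by 0.17 ± 0.05 on the log2 scale (edgeR adjusted p = 0.0303). Both calls were lost without GiWi replicate 1 (adjusted p of 0.0796 for UQCRC1 and 0.111 for CYC1) or GiWi replicate 2 (0.113 and 0.156). That of CYC1 was also lost without YAPi replicate 1 (0.130) or 2 (0.0891).

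UQCRH, the hinge protein between cytochromes c1 and c, was the most abundant complex III transcript, at a mean of 167.8 FPKM. Its log2 fold change was 0.19 ± 0.08 (edgeR adjusted p = 0.0953), and reads may be shared with its copy UQCRHL. As a share of the summed complex III FPKM, UQCRQ made up 6.63 ± 0.349% in YAPi libraries and 4.14 ± 0.307% in GiWi libraries. UQCRC1 made up 7.44 ± 0.115% in YAPi and 9.85 ± 0.00332% in GiWi libraries. UQCRQ and UQCRC1 were named for a large rise or fall, so the contrast of their shares is a description only. The summed complex III level was 623.1 ± 40.6 FPKM in YAPi and 630.3 ± 1.96 FPKM in GiWi libraries. CYCS, the electron carrier between complexes III and IV, had 86.9, 85.4 and 58.6 CPM in YAPi libraries, against 87.8 and 74.0 CPM in GiWi libraries. Its groups overlapped, and its log2 fold change was -0.07 ± 0.19 (edgeR adjusted p = 0.763).

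**Figure D2:**
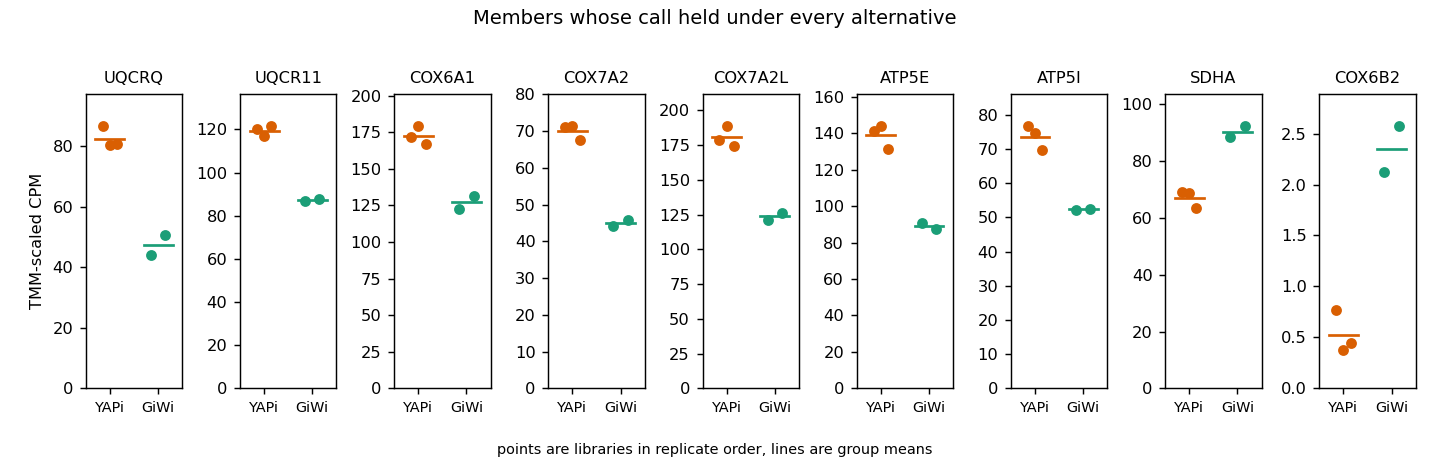
TMM-scaled CPM of the 9 members whose call held under all 15 alternatives, with a point per library and a line for the group mean (YAPi, 3 libraries; GiWi, 2 libraries). The groups do not overlap in any panel, but these members were selected for calls that held. Of all tested genes, 75.8% do not overlap. UQCRQ averages 82.5 CPM in YAPi and 47.3 CPM in GiWi libraries.

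In complex IV, 6 of the 13 tested genes were higher with YAPi (COX5B, COX6A1, COX6C, COX7A2, COX7A2L and COX7C) and COX6B1 and COX6B2 were lower. The other 5 did not pass, among them COX4I1, the common form of the largest nuclear subunit (log2 fold change -0.05 ± 0.06, edgeR adjusted p = 0.491). The background was 30.2% of all tested genes called higher and 26.9% lower. With library size alone 3 genes of complex IV were higher and 5 lower, against 22.3% and 39.9% of all genes. Without YAPi replicate 3 the counts were 7 and 4, against 38.4% and 36.5% of all genes. The summed level was 1642 ± 89.0 FPKM in YAPi and 1589 ± 3.64 FPKM in GiWi libraries.

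COX7A2, the form of subunit 7A made in most tissues, had 71.1, 71.3 and 67.6 CPM in YAPi libraries, against 44.3 and 45.96 CPM in GiWi libraries. All YAPi libraries lay well above both GiWi libraries, at a log2 fold change of 0.63 ± 0.06 (edgeR adjusted p = 5.33e-04; hg19 chr6:75947391-75953644). COX7A2L, the supercomplex factor related to it, had 178.6, 188.4 and 174.2 CPM in YAPi libraries, against 121.1 and 126.2 CPM in GiWi libraries. The separation was as complete, at a log2 fold change of 0.54 ± 0.06 (edgeR adjusted p = 9.86e-04; hg19 chr2:42577636-42588383). COX6A1, the common form of subunit 6A, had 171.7, 179.0 and 166.6 CPM in YAPi libraries, against 122.6 and 131.5 CPM in GiWi libraries. It rose by 0.44 ± 0.06 on the log2 scale (edgeR adjusted p = 0.00233; hg19 chr12:120875893-120878545).

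COX7C had 135.3, 136.5 and 119.0 CPM in YAPi libraries, against 101.3 and 103.4 CPM in GiWi libraries. The groups did not overlap, and it rose by 0.35 ± 0.08 on the log2 scale (edgeR adjusted p = 0.0118). The call was lost with library size alone (edgeR adjusted p = 0.167). It was also lost with limma on log2 FPKM (adjusted p of 0.0644 and 0.0607 at pseudocounts of 1 and 0.1). Without GiWi replicate 1 or 2 it was lost too, at log2 fold changes of 0.33 and 0.36. COX6B1, the common form of subunit 6B on the intermembrane side, had 124.8, 130.9 and 123.0 CPM in YAPi libraries, against 146.4 and 147.6 CPM in GiWi libraries. It fell by 0.22 ± 0.05 on the log2 scale (edgeR adjusted p = 0.0165). The COX6B1 call did not hold without GiWi replicate 1 (adjusted p = 0.0863), GiWi replicate 2 (0.0998) or YAPi replicate 1 (0.0765).

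Within the complex, the transcript shares of COX7A2 and COX6B1 differed between the protocols in opposite directions. COX7A2 made up 4.49 ± 0.109% of the summed complex IV FPKM in YAPi libraries and 3.30 ± 4.49e-04% in GiWi libraries. COX6B1 made up 10.4 ± 0.329% in YAPi and 13.8 ± 0.289% in GiWi libraries. The ranges of both shares did not overlap between the groups, nor did those of most other genes of the complex. Both genes were named for a large rise or fall, so the separation of their shares is a description only.

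Tissue-restricted isoforms of complex IV were rare under both protocols. Counts of COX4I2 (the lung form) were 6, 0 and 2 in YAPi libraries, against 9 and 8.5 in GiWi libraries. COX7A1, the heart and muscle form of subunit 7A, had 12, 4.5 and 6 counts in YAPi libraries, against 5.5 and 3 in GiWi libraries. COX7B2 and COX8C, known from testis, had at most 1.5 counts in any library. None of these 4, nor ATP5L2 (2 to 11 counts), passed the filter on low counts. They have no fold change or adjusted p here. The CPM values of COX4I2 did not overlap between the groups, at 0 to 0.128 CPM in YAPi libraries and 0.155 and 0.168 CPM in GiWi libraries.

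COX6A2, the heart and muscle form of subunit 6A, was the restricted isoform with the highest level. It had 2.81, 2.96 and 0.791 CPM in YAPi libraries, against 4.74 and 4.68 CPM in GiWi libraries, with the third YAPi library lowest by a wide margin. The log2 fold change was -1.10 ± 0.51 (edgeR adjusted p = 0.115). Without YAPi replicate 3 it was -0.71, with an edgeR adjusted p of 1.32e-05, so that library decides the call. COX6A2 made up 2.08, 2.10 and 0.606% of the summed FPKM of COX6A2 and COX6A1 in YAPi libraries, against 4.80 and 4.43% in GiWi libraries. The difference of the means was -3.02 percentage points (exact two-sided permutation p = 0.1, the smallest that 10 splits allow; 0.3 after adjustment over 6 pairs).

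COX6B2, the testis form of subunit 6B, fell by the largest fold of all tested members, from a low level. It lies at chr19:55861070-55866182 (hg19) and had 0.765, 0.376 and 0.445 CPM in YAPi libraries, against 2.13 and 2.57 CPM in GiWi libraries. The log2 fold change was -2.14 ± 0.33 (edgeR adjusted p = 0.00329). It was the only member called with a change of at least 2-fold, which 23.3% of all tested genes showed. Its share of the subunit 6B pair was 0.216, 0.0979 and 0.131% of FPKM in YAPi libraries, against 0.510 and 0.610% in GiWi libraries (exact two-sided permutation p = 0.1; 0.3 adjusted). COX7A1 made up 0.354, 0.147 and 0.218% of its pair with COX7A2 in YAPi libraries, against 0.229 and 0.126% in GiWi libraries, and those ranges overlapped (exact permutation p = 0.5; 0.6 adjusted). For COX4I2 the exact permutation p was 0.2, for COX7B2 0.4 and for COX8C 1.

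**Figure D3:**
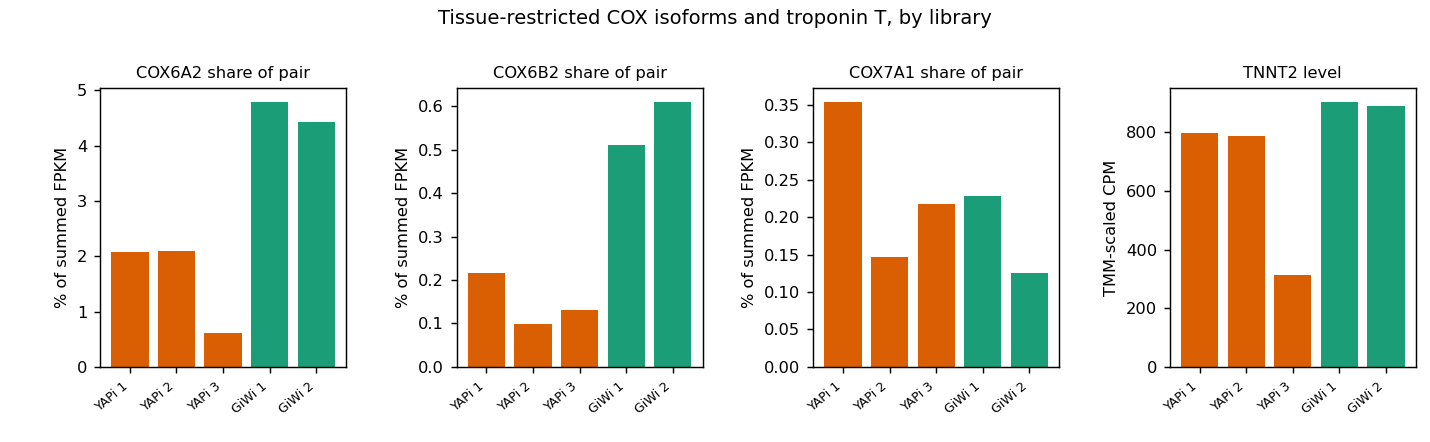
Share (% of the pair's summed FPKM) of COX6A2, COX6B2 and COX7A1 in their isoform pairs, and TNNT2 in TMM-scaled CPM, with a bar per library (3 YAPi, then 2 GiWi). COX6A2 and TNNT2 are both lowest in YAPi replicate 3, at 0.606% and 315.0 CPM.

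Beside the COX6A2 values stood those of TNNT2, cardiac troponin T, a defining protein of heart muscle. It had 799.0, 789.7 and 315.0 CPM in YAPi libraries, against 905.2 and 891.0 CPM in GiWi libraries. The log2 fold change was -0.50 ± 0.39 (edgeR adjusted p = 0.316). Per 1000 CPM of TNNT2 there were 3.51, 3.75 and 2.51 CPM of COX6A2 in YAPi libraries, against 5.24 and 5.25 CPM in GiWi libraries. This ratio was chosen after its values were seen and has no test. In bulk RNA, fewer cells of a type and less RNA per cell cannot be told apart.

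In complex V, 4 of the 18 tested genes were higher with YAPi (ATP5C1, ATP5E, ATP5I and ATP5L). A further 3 were lower (ATP5A1, ATP5D and ATP5SL) and 11 did not pass. ATP5SL, named DMAC2 in RefSeq, is counted here by its symbol and is not a subunit. The shares of 22.2% higher and 16.7% lower lay below those of all tested genes (30.2% and 26.9%). Without YAPi replicate 3 the counts were 10 higher and 4 lower, against 38.4% and 36.5% of all genes. With library size alone they were 2 higher and 7 lower, against 22.3% and 39.9% of all genes. The catalytic F1 part held 2 higher and 2 lower genes of 5. None of the 4 peripheral stalk genes passed, at log2 fold changes of 0.11 to 0.22, nor did the 3 genes of the c ring. YAPi replicate 3 decides the peripheral stalk calls: without it all 4 were higher, with edgeR adjusted p of 1.60e-05 for ATP5F1, 3.89e-06 for ATP5H, 1.05e-04 for ATP5J and 3.68e-04 for ATP5O. Their log2 fold changes were then 0.22 to 0.35, and limma-voom with sample weights also called all 4. The summed level was 1914 ± 122.9 FPKM in YAPi and 1944 ± 16.8 FPKM in GiWi libraries.

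ATP5E, the epsilon subunit at the foot of the F1 stalk, had 141.2, 143.7 and 131.4 CPM in YAPi libraries, against 90.7 and 87.3 CPM in GiWi libraries. The groups lay far apart, at a log2 fold change of 0.64 ± 0.06 (edgeR adjusted p = 6.92e-04; hg19 chr20:57603733-57607422). ATP5I, subunit e of the membrane part, which helps the synthase to form dimers, had 76.6, 74.6 and 69.7 CPM in YAPi libraries, against 52.3 and 52.5 CPM in GiWi libraries. Its log2 fold change was 0.49 ± 0.06 (edgeR adjusted p = 0.00168; hg19 chr4:666225-668127).

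ATP5A1, the alpha subunit that with beta forms the F1 head, had 311.1, 318.2 and 279.1 CPM in YAPi libraries, against 375.3 and 368.5 CPM in GiWi libraries. It fell by 0.30 ± 0.07 on the log2 scale (edgeR adjusted p = 0.0163). ATP5D, the delta subunit that sits beside epsilon in the stalk, had 49.96, 50.1 and 52.5 CPM in YAPi libraries, against 58.8 and 69.5 CPM in GiWi libraries. The GiWi libraries differed more from each other than the YAPi libraries did, and the log2 fold change was -0.34 ± 0.08 (edgeR adjusted p = 0.0181). The ATP5A1 call was lost without GiWi replicate 1 (adjusted p = 0.0972) or 2 (0.0827). The ATP5D call was lost without GiWi replicate 2 (0.0982) or YAPi replicate 1 (0.0627) or 2 (0.0646). ATP5B, the beta subunit, had a log2 fold change of -0.15 ± 0.06 (edgeR adjusted p = 0.0607), and without YAPi replicate 3 it was -0.12 with an adjusted p of 0.0195.

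As a share of the summed complex V FPKM, ATP5E made up 13.2 ± 0.226% in YAPi libraries and 9.20 ± 0.389% in GiWi libraries. ATP5A1 made up 6.52 ± 0.0759% in YAPi and 8.71 ± 0.261% in GiWi libraries. Epsilon and alpha transcripts, of the same F1 part, moved in opposite directions. Both genes were named for a large rise or fall, so the contrast of their shares is a description only. The c ring, which turns as protons pass, is encoded by 3 genes with the same mature protein. ATP5G1 made up 20.9 ± 0.471% of their summed FPKM in YAPi and 17.3 ± 0.0181% in GiWi libraries. ATP5G2, the most abundant gene of complex V at a mean of 236.2 FPKM, made up 67.1 ± 0.601% in YAPi and 69.9 ± 0.474% in GiWi libraries. Its own log2 fold change was -0.14 ± 0.09 (edgeR adjusted p = 0.261).

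Other mitochondrial genes gave mixed counts, to be read against 30.2% of all tested genes higher and 26.9% lower. With library size alone these backgrounds were 22.3% and 39.9%, and without YAPi replicate 3 they were 38.4% and 36.5%. Of 36 assembly factors of complexes II to V, 15 rose (41.7%) and 4 fell (11.1%), at a median log2 fold change of 0.19, but with library size alone 5 rose and 10 fell. Without YAPi replicate 3 the counts were 19 and 7. COX16, which helps to build the copper centre of complex IV, averaged 18.5 ± 1.08 CPM in YAPi and 10.9 ± 0.361 CPM in GiWi libraries, a log2 fold change of 0.76 ± 0.08 (edgeR adjusted p = 8.77e-04). OXA1L, which inserts proteins into the inner membrane, averaged 80.4 ± 3.56 CPM in YAPi and 115.0 ± 7.75 CPM in GiWi libraries, at -0.52 ± 0.07 (edgeR adjusted p = 0.0020). COA4, another complex IV assembly factor, rose by 0.48 ± 0.06 (edgeR adjusted p = 0.00128).

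Of 18 import and outer membrane genes, 8 rose (44.4%) and 3 fell (16.7%), at a median of 0.10, against 3 and 8 with library size alone. TOMM5, a small subunit of the outer membrane import pore, averaged 74.1 ± 0.951 CPM in YAPi and 43.5 ± 0.137 CPM in GiWi libraries (log2 fold change 0.77 ± 0.05, edgeR adjusted p = 2.03e-04). TOMM7, another small pore subunit, rose by 0.69 ± 0.10 (edgeR adjusted p = 0.00284). HSPA9, the matrix chaperone that draws proteins in, rose by 0.46 ± 0.07 (edgeR adjusted p = 0.00315). Of 78 mitochondrial ribosome genes, 25 rose (32.1%, near the share of all genes) and 12 fell (15.4%), at a median of 0.08, and with library size alone 13 rose and 25 fell. MRPL54, MRPL24 and MRPS33, proteins of that ribosome, rose by 0.66 ± 0.06, 0.61 ± 0.06 and 0.62 ± 0.07 (highest edgeR adjusted p = 0.00114).

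The TCA cycle, which feeds electrons to the chain, had 1 gene higher (7.14%), 6 lower (42.9%) and 7 that did not pass of 14, at a median of -0.23. With library size alone 1 was higher and 9 lower, and without YAPi replicate 3 the counts were 4 and 8. CS, citrate synthase, averaged 90.04 ± 3.11 CPM in YAPi and 132.5 ± 6.75 CPM in GiWi libraries (log2 fold change -0.56 ± 0.06, edgeR adjusted p = 9.68e-04). IDH3G, a subunit of isocitrate dehydrogenase, fell by 0.29 ± 0.05 (edgeR adjusted p = 0.00647). SUCLG2, a subunit of succinyl-CoA ligase, averaged 45.1 ± 7.59 CPM in YAPi and 17.9 ± 1.22 CPM in GiWi libraries and rose by 1.33 ± 0.16 (edgeR adjusted p = 0.00130). Of 18 regulators of mitochondrial biogenesis, 5 rose (27.8%) and 2 fell (11.1%), at a median of 0.01. The counts were 1 and 8 with library size alone, and 7 and 8 without YAPi replicate 3. TFB2M, a transcription factor of mitochondrial DNA, averaged 11.3 ± 0.425 CPM in YAPi and 5.89 ± 0.200 CPM in GiWi libraries (log2 fold change 0.94 ± 0.09, edgeR adjusted p = 5.71e-04). NRF1, an activator of respiratory genes, fell by 0.39 ± 0.08 (edgeR adjusted p = 0.00831). ESRRB, an oestrogen-related receptor, fell by 1.69 ± 0.26 (edgeR adjusted p = 0.00307) at low levels of 0.239 CPM in YAPi and 0.778 CPM in GiWi libraries. ESRRA, of the same family, averaged 25.1 CPM in YAPi and 15.9 CPM in GiWi libraries. It rose by 0.66 ± 0.17 (edgeR adjusted p = 0.0193). ESRRG, also of that family, did not pass, at -0.53 ± 0.22 (edgeR adjusted p = 0.0886).

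YAPi replicate 3 stood apart from replicates 1 and 2. Over gene counts, the chi-square divided by its degrees of freedom was 53.5 and 48.4 against them, 2.13 between replicates 1 and 2, and 5.89 between the GiWi libraries. Replicate 3 lay below the mean of the other two for 40 of the 46 members, at a median log2 difference of -0.18 (range -1.39 for COX6A2 to 0.08), against a median of 0.00 over all genes. Without it, 26 members were higher and 11 lower, at backgrounds of 38.4% and 36.5% of all genes.

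Markers of other cells differed too. A list of 15 heart muscle genes summed to 5892, 5961 and 2480 CPM in YAPi libraries, against 6797 and 6637 CPM in GiWi libraries, and 1 rose, 2 fell and 12 did not pass. Without YAPi replicate 3 the counts were 4 higher and 8 lower. In the main fit MYH6 fell, with 123.0, 131.9 and 49.2 CPM in YAPi libraries, against 1879 and 1856 CPM in GiWi libraries. That gap exceeds the gap between the sums of YAPi replicates 1 and 2 and the GiWi sums. RYR2 fell too, averaging 50.4 CPM in YAPi and 90.2 CPM in GiWi libraries. MYH7 rose, averaging 925.0 CPM in YAPi and 404.3 CPM in GiWi libraries. All 10 macrophage markers rose, with sums of 405.8, 417.9 and 160.0 CPM in YAPi libraries, against 2.15 and 2.57 CPM in GiWi libraries, where C1QB, CD163 and LILRB2 were at 0. All 8 gut epithelium markers rose, to 751.3, 749.1 and 327.4 CPM in YAPi libraries, against 23.4 and 24.6 CPM in GiWi libraries. The 8 fibroblast and stroma markers summed to 106426, 108792 and 127209 CPM in YAPi libraries, against 59857 and 60152 CPM in GiWi libraries (5 rose, 3 fell). The 5 endothelium markers summed to 324.4 to 410.3 CPM in YAPi and 277.4 and 285.0 CPM in GiWi libraries (3 rose, 2 fell). All 5 markers of dividing cells fell, to 146.3 to 150.4 CPM in YAPi libraries, against 383.1 and 372.9 CPM in GiWi libraries. The 8 skeletal muscle markers summed to 23.0 to 54.7 CPM in YAPi and 101.6 and 107.2 CPM in GiWi libraries. Most of each sum was CKM, which fell and averaged 31.1 CPM in YAPi and 96.8 CPM in GiWi libraries. ACTA1 rose, averaging 11.9 CPM in YAPi and 6.05 CPM in GiWi libraries. These were the only calls (1 rose and 1 fell, or 2 and 2 without YAPi replicate 3), and MYF5 was at 0 in all libraries. The 3 brown fat markers stayed under 0.0742 CPM. The part of these cell types in the results on respiratory genes was not tested.

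**Figure D4:**
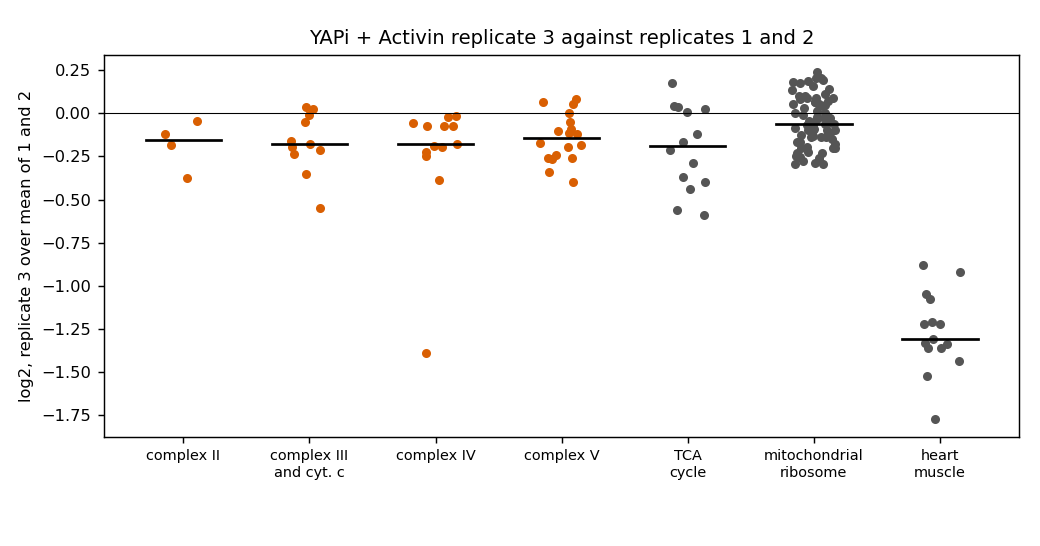
Log2 difference of YAPi replicate 3 from the mean of YAPi replicates 1 and 2, with a point per gene and a line at the median, for the tested members by complex and for the TCA cycle, mitochondrial ribosome and heart muscle lists. The respiratory members have a median of -0.18 and the heart muscle list a median of -1.31.

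Fold changes also went with transcript length across all genes. For transcripts of up to 600 bases the median log2 fold change of all genes was 0.20, and for those over 4000 bases it was -0.10. In these bins the members had medians of 0.25 (11 members) and 0.03 (3 members). The 10 members of 600 to 1000 bases had a median of 0.15, against 0.24 for all genes of that length. From 1000 to 2000 bases the median was 0.10 for 16 members and 0.10 for all genes. From 2000 to 4000 bases it was -0.12 for 6 members and 0.02 for all genes. The medians of the members therefore did not fall steadily with length. The Spearman correlation of log2 fold change with listed length was -0.285 over the 46 members and -0.136 over the 17634 genes. It is a description only, since all genes share the same 5 libraries and members of a complex are not independent. The median listed length was 1148 bases for the 16 members called higher and 1629 bases for the 8 called lower, and the part of length in the calls was not tested.

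**Figure D5:**
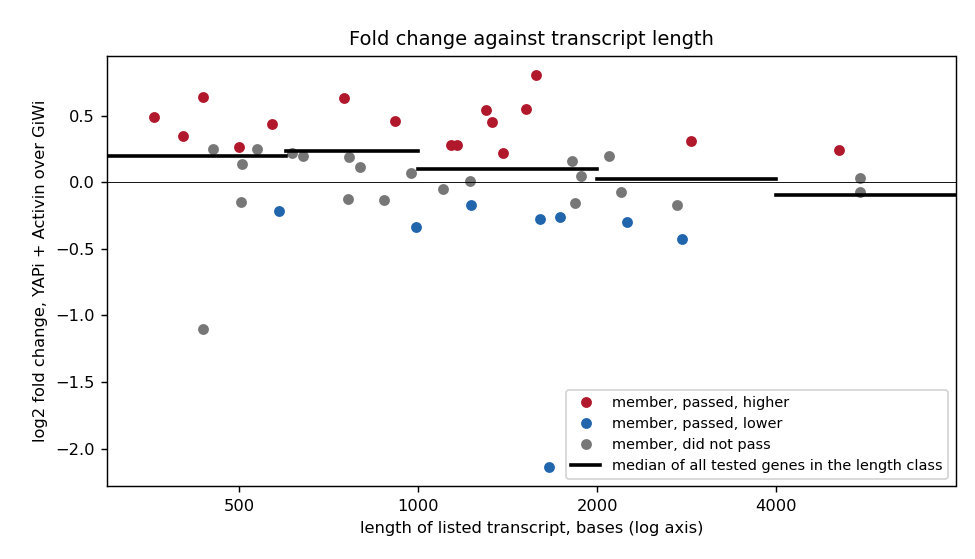
Log2 fold change (YAPi + Activin over GiWi) of the 46 tested members against listed transcript length (log axis), with the median of all tested genes in each length bin. Members of up to 600 bases have a median of 0.25, close to 0.20 for all genes of that length.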

How the data were processed

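Per the labels' protocols, polyadenylated RNA of 5 libraries was prepared with a stranded kit and sequenced on a HiSeq 4000. Tools listed, with no role or order, per the submitters' processing notes, are STAR 2.5.1, FastQC 0.11.5, edgeR 3.16.1 and HOMER, with the hg19 build. The authors deposited exon counts per gene, treated here as an expected count because all values are multiples of 0.5 and 34.6% have a fraction. Values were rounded to whole numbers for the test. FPKM values, also deposited by the authors, form the other table. Each lists 27139 genes, joined here by symbol, since 27.2% of genes have different transcripts in the tables. There were 0 columns of other samples. Genes with near-identical copies or overlapping neighbours may share reads. Whether the counting used strand is not given in the sources. Coordinates are hg19 spans of the listed transcripts.

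Groups came from the labels. edgeR 4.0.16 in R 4.3.3 (quasi-likelihood test, TMM, minimum count 10, minimum total 15, Benjamini-Hochberg adjustment at 0.05) tested 17634 genes, with a common dispersion of 0.0232. Errors of fold changes are standard errors and other errors SDs (n = 3 YAPi, n = 2 GiWi). Isoform shares were compared by an exact permutation test. Alternatives used RLE factors, library size alone, no filter, at least 1 CPM in 2 libraries, robust edgeR, DESeq2 1.42.0, limma 3.58.1 (voom with sample weights, and on FPKM, as log2 after adding 1 or 0.1), leaving out every library once, and the replicate number as a block. Figures used matplotlib 3.10.9.

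Members, lists and the rule for named genes were chosen with earlier results of these data known. The rule takes the isoform pairs, up to 2 called members with the largest rises and falls and the most abundant member of each complex, UQCRQ, up to 3 called genes of each related list with the smallest p, and TNNT2. Further members are named because all members are counted. Further genes of the lists are named to show where genes of a list or family moved apart.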

Additional observations from a re-analysis of the deposited data

How the results depend on the processing

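Directions held under RLE factors, the stricter filter, robust edgeR and DESeq2, where the counts of members called stayed within 1.5 times. With library size alone, 7 members were higher and 15 lower, at a median of -0.041, and the readthrough gene ATP5J2-PTCD1 turned to -0.16 (edgeR adjusted p = 0.0469). limma on log2(FPKM + 1) called 9 members higher and 14 lower, and with a pseudocount of 0.1 it called 10 and 14, both at a median of 0.0087. Of all genes these fits called 22.0% and 23.7% higher and 36.0% lower in each, and library size alone 22.3% higher and 39.9% lower. The cause was not tested. With limma-voom and sample weights, 24 members were higher and 10 lower. That fit called 6624 of all genes higher and 6309 lower, against 5325 and 4740 in the main fit.

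Leaving out each library in turn gave 5909 to 13115 changed genes (3301 to 6721 higher, 2608 to 6394 lower), 7 to 26 members higher and 2 to 11 lower. The lowest counts came without GiWi replicate 2 (7 higher, 2 lower) and without GiWi replicate 1 (8 and 4), where the lone GiWi library is assumed to vary like the YAPi libraries. Without YAPi replicate 1 they were 11 and 4, without replicate 2 they were 11 and 5, and without replicate 3 they were 26 and 11. In CPM in place of FPKM, the COX6B2 share differed by -1.15 percentage points, against -0.412.

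Whether the replicate numbers pair the libraries is not known. The deviations of same-numbered libraries from their group means correlated at 0.0508 for number 1 and -0.0303 for number 2. With only 2 GiWi libraries, their deviations mirror each other, so these values cannot decide the question. With the replicate number as a block, 27 members were higher and 12 lower, 13576 genes changed, and CYCS turned to 0.093 (edgeR adjusted p = 0.0421). Only 2 numbers occur in both groups, so in this fit YAPi replicate 3 adds nothing to the comparison of the groups. The block is therefore close to a repeat of the fit without that library. There 26 members were higher and 11 lower, and the CYCS log2 fold change was 0.091. The change from the main fit is thus not a result of pairing.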
